A study of Mus musculus with 6 samples.

Results

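The phagocyte NADPH oxidase and the enzymes that handle its products were followed through 9 genes, *Cybb*, *Cyba*, *Ncf1*, *Ncf4*, *Rac2*, *Sod2*, *Gpx1*, *Cat* and *Txnrd1*, in RNA-seq of colonic lamina propria macrophages (MΦs). They were chosen by gene symbol, and all 9 were among the 14097 genes of the deposited table and among the 11067 genes that reached 50 normalized counts in at least 1 library. P3/P4 MΦs, the mature fraction (CD45+CD11b+CD11cintCD103-CD64+Ly6C-MHCII+), were sorted from untreated *Il10rb-/-* mice, which lack a chain of the interleukin-10 receptor (Il10rb tm1Agt), and from littermate *Il10rb+/-* mice, which keep 1 working allele. All mice were on the 129SvEv background. The comparison asks how gene expression in mature colonic MΦs differs with and without this receptor chain as mice grow. The paper reports that mice without this chain develop colitis from around weaning, nearly all of them by adulthood, unlike their littermate controls. Genotype and colitis therefore cannot be told apart at 12 weeks, and may not be separable at 3 weeks. A ratio at these ages is thus not an effect of the receptor in MΦs alone. The 6 libraries covered the 2 genotypes at ages of 1, 3 and 12 weeks, with 1 library for each combination. A single mouse gave each library of 3 or 12 weeks, and pooled mice gave each library of 1 week. No group had a replicate library, so a difference at 1 age has no replicate check and describes 2 libraries.

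The phagocyte oxidase passes electrons from NADPH across the membrane to oxygen and so makes superoxide inside phagosomes or outside the cell. Its membrane core joins gp91phox (*Cybb*), which carries the electrons, to p22phox (*Cyba*), which stabilizes it. In resting cells p47phox (*Ncf1*), p40phox (*Ncf4*) and a Rac GTPase (*Rac2* or *Rac1*) wait in the cytosol and move to the core when the cell is activated. Superoxide dismutases such as the mitochondrial *Sod2* turn superoxide into hydrogen peroxide, which glutathione peroxidase (*Gpx1*) and catalase (*Cat*) break down, while thioredoxin reductase (*Txnrd1*) uses NADPH to keep thioredoxin reduced. Loss of oxidase function causes chronic granulomatous disease, in which bacterial killing fails and the gut can become inflamed.

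The promoters of these genes differ, and 4 of them are shown because their genes carry the largest genotype differences or hold the motif that is rarest among all promoters. RefSeq promoter sequence (GRCm38.p6) was found for 7 of the 9 genes, and *Ncf4* and *Rac2* were not matched. Each line gives the 250 bases before an annotated transcript start, 5′ to 3′ on the strand of the gene, with motif matches in capitals.

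*Cybb* (chrX:9469325-9469574, minus strand): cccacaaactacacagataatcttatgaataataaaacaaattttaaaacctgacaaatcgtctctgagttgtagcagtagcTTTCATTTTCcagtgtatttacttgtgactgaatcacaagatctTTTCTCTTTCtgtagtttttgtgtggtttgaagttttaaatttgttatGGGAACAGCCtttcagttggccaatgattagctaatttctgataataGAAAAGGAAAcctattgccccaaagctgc

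*Ncf1* (chr5:134229626-134229875, minus strand): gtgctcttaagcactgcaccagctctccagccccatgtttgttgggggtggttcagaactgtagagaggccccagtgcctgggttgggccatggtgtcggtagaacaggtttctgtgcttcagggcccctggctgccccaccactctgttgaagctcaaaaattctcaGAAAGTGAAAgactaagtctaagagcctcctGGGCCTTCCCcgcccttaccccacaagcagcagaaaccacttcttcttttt

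*Sod2* (chr17:13007589-13007838, plus strand): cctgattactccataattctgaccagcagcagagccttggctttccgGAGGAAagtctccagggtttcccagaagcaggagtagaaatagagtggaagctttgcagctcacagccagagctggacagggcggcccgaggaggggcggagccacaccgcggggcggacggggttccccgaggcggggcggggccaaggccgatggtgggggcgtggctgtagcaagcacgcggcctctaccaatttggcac

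*Txnrd1* (chr10:82858956-82859205, plus strand): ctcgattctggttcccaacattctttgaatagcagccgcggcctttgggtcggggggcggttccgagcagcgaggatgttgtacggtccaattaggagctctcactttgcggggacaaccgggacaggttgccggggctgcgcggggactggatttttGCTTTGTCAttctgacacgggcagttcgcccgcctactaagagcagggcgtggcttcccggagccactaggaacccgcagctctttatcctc

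Matches were searched on both strands in the 300 bases from 250 before to 50 after each start. The interferon response type of motif, GAAA, any 2 bases and GAAA, was held by 3.44% of 32851 promoters and by those of *Cybb*, at 3 places, and *Ncf1*. The antioxidant response element TGACNNNGC was held by 12.4% of all promoters and, among these genes, by that of *Txnrd1*, in 1 of its 3 annotated promoters and on the minus strand. The PU.1 core GAGGAA was held by 28.3% of all promoters and by those of *Cat*, *Cybb*, *Sod2* and *Txnrd1*, in the last case in another of its 3 windows. In *Cybb* this match lies past the bases shown. The NF-kappaB type of motif, GGGA, any 4 bases and CC, was held by 20.7% of all promoters and by those of *Cat*, *Cyba*, *Cybb*, *Gpx1* and *Ncf1*. In these windows no 2 matches shown in capitals overlap. A match describes the letters in the window and is not a measured binding site.

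The values are counts of reads per gene divided by the size factor of the library, called normalized counts here. Reads read back from these values summed to between 6700337 in the 3-week *Il10rb+/-* library and 40754971 in the 12-week *Il10rb+/-* library, and the lowest number of reads behind any value of the 9 genes was 626. Ratios are log2 of *Il10rb-/-* over *Il10rb+/-* normalized counts, with exact (Clopper-Pearson) 95% intervals from the reads that cover counting error only. The labels were checked with *Il10rb*, which had 1231, 386 and 2341 reads in the *Il10rb+/-* libraries at 1, 3 and 12 weeks and 8, 28 and 43 reads in the *Il10rb-/-* libraries. For the labelled cell type 16 macrophage markers were read, which summed to between 965660 and 1713350 normalized counts in the 6 libraries. Most of each sum came from *Cd74*, *H2-Ab1* and *H2-Aa* of the class II pathway, with 570236, 398482 and 237194 in the 12-week *Il10rb-/-* library. The sort took MHCII+ cells, so the sum is not a check of macrophage identity. *Csf1r*, *Fcgr1* and the class II gene *H2-Ab1* were at 1285 normalized counts or more in every library. At 12 weeks 6 of the 16 were over 1.5-fold lower in *Il10rb-/-* MΦs, beside 23.6% of all genes. Among them were *C1qa* (7106 against 29971 normalized counts), *Cx3cr1* (906 against 8074) and *Adgre1* (3800 against 16537). Another 6 of the 16 were higher, 1 of them (*Itgax*, log2 ratio 1.05) by over 1.5-fold, beside 19.3% of all genes. The 12-week *Il10rb-/-* library had more of the neutrophil markers, whose sum was 13629 normalized counts against 1604 to 2431 in the other 5 libraries. *Csf3r* made up 6944 of that sum and most of each of the others. In bulk RNA from sorted cells, fewer cells of a type and less RNA per cell cannot be told apart.

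*Cybb*, *Cyba*, *Ncf1* and *Ncf4*, which encode subunits of the oxidase itself, were highest in the 12-week *Il10rb-/-* library, at 1.68 to 2.48 times the 12-week *Il10rb+/-* level. At 1 and 3 weeks the genotypes differed less and in both directions. *Rac2* stayed within a 1.27-fold range over all 6 libraries. No oxidase gene passed the adjusted test across ages.

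*Cybb* (ENSMUSG00000015340, chromosome X from 9435252 to 9487771 of GRCm38, or mm10) encodes the catalytic subunit. It had 26255, 20378 and 21269 normalized counts in the *Il10rb+/-* libraries at 1, 3 and 12 weeks, and 19645, 24543 and 38646 in the *Il10rb-/-* libraries. The lowest and the highest value were both in *Il10rb-/-* MΦs, so the groups overlapped. The log2 ratio was -0.42 (interval -0.45 to -0.39) at 1 week, 0.27 (0.23 to 0.30) at 3 weeks and 0.86 (0.84 to 0.88) at 12 weeks. At 1 week the *Il10rb+/-* pool also held reads of genes on chromosome Y at levels that the *Il10rb-/-* pool did not reach, with 546 normalized counts of *Ddx3y* against 0 reads (shown as 1). Sex and genotype cannot be told apart at this age, which bears on an X-linked gene such as *Cybb*.

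*Cyba* (ENSMUSG00000006519, chromosome 8 from 122424776 to 122432930) is much shorter, and per kilobase of exon (all annotated transcripts merged) its level exceeded that of *Cybb* in every library. The *Cybb* to *Cyba* ratio of normalized counts per kilobase was 0.922, 0.767 and 0.609 in *Il10rb+/-* MΦs at 1, 3 and 12 weeks and 0.555, 0.840 and 0.658 in *Il10rb-/-* MΦs. In normalized counts *Cyba* was at 5093, 4755 and 6244 in *Il10rb+/-* MΦs and at 6330, 5229 and 10504 in *Il10rb-/-* MΦs. The *Il10rb-/-* library was the higher of the pair at each age, although the 3-week *Il10rb-/-* value lay below the 12-week *Il10rb+/-* value. The log2 ratios were 0.31 (0.25 to 0.37), 0.14 (0.06 to 0.21) and 0.75 (0.72 to 0.78). The annotation places *Cyba* inside *Gm20388* on the opposite strand. The strand setting of the counting is not given in the sources used here, so reads from this partner could not be separated.

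*Ncf1* (ENSMUSG00000015950, chromosome 5 from 134220053 to 134229625), the organizer subunit, had 5490, 4935 and 5548 normalized counts in *Il10rb+/-* MΦs, a range close to flat. In *Il10rb-/-* MΦs it had 4868, 6822 and 9624 normalized counts, so the *Il10rb-/-* libraries held both the lowest and the highest value. Its log2 ratios were -0.17 (-0.24 to -0.11), 0.47 (0.40 to 0.54) and 0.79 (0.76 to 0.83) at 1, 3 and 12 weeks. Its 3′ end overlaps *Gtf2ird2* on the opposite strand, which is also in the table. Its promoter, shown above, holds 1 match of the interferon response type, where that of *Cybb* holds 3. The 3 genes with the most similar profile over the 6 libraries were *Fam26f* (Pearson r = 0.997), *Pdhb* (0.992) and *Irgm1* (0.992).

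*Ncf4* (ENSMUSG00000071715, chromosome 15 from 78244801 to 78262580), the subunit that binds a phagosomal lipid, had the largest 12-week ratio among the oxidase genes. It had 3681, 4692 and 3338 normalized counts in *Il10rb+/-* MΦs and 3602, 4303 and 8274 in *Il10rb-/-* MΦs. Only the 12-week *Il10rb-/-* library stood above the range of the other 5, and the 12-week *Il10rb+/-* library was the lowest of the 6. The log2 ratio was -0.03 (-0.11 to 0.04) at 1 week, where the depth could not show a difference, -0.12 (-0.20 to -0.05) at 3 weeks and 1.31 (1.27 to 1.35) at 12 weeks.

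*Rac2* (ENSMUSG00000033220, chromosome 15 from 78559167 to 78572783), the GTPase of blood cells that switches the oxidase on, varied least of the 9 genes. It had 4457, 5385 and 4808 normalized counts in *Il10rb+/-* MΦs and 5012, 5656 and 5339 in *Il10rb-/-* MΦs, with the groups overlapping. Its log2 ratios were 0.17 (0.10 to 0.23), 0.07 (0.00 to 0.14) and 0.15 (0.11 to 0.19), and the 12-week value became -0.07 when libraries were scaled to their total reads. Under that scaling the median of all genes at 12 weeks moved from 0.04 to -0.19, so each 12-week ratio is lower by 0.22 on the log2 scale, and *Rac2* was still above that median.

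**Figure D1:**
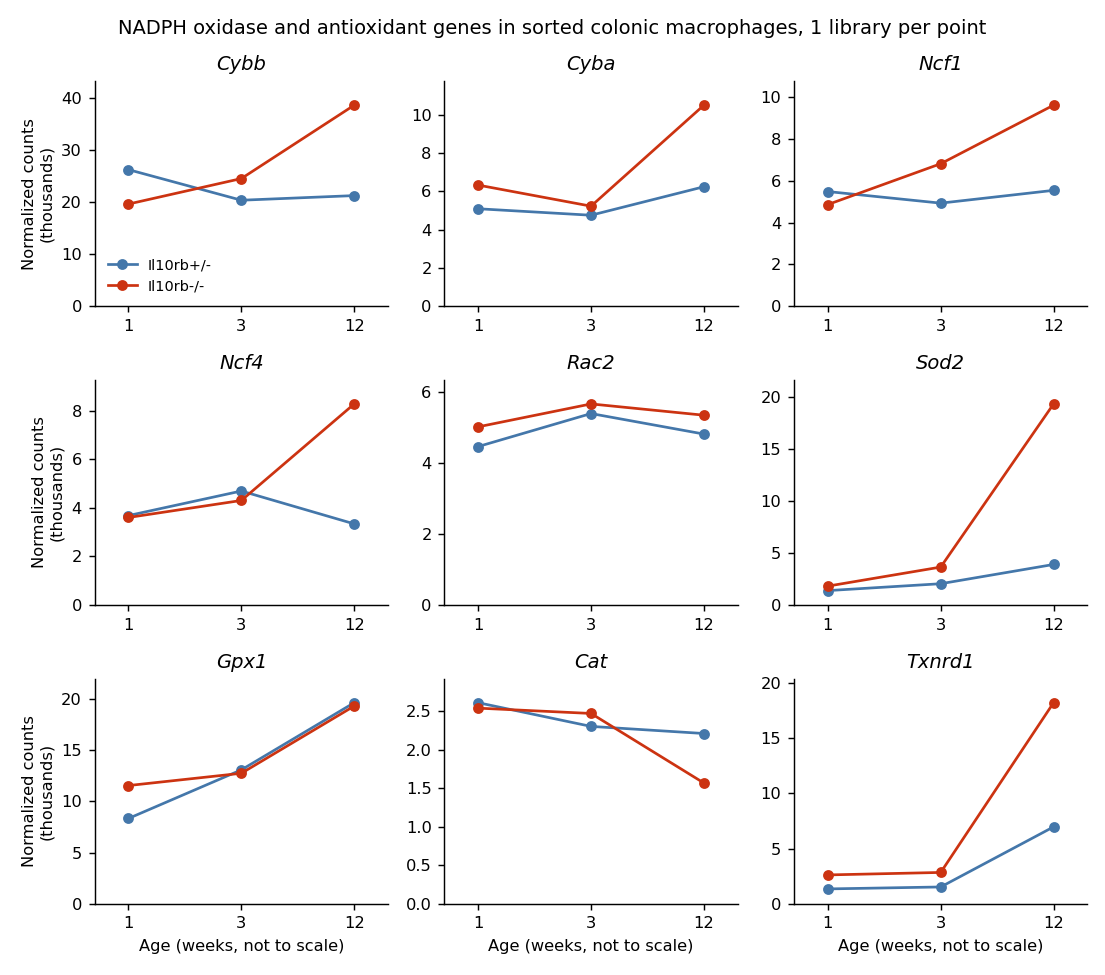
Normalized counts (in units of 1000, axes from 0) of the 9 genes against age (1, 3 and 12 weeks, not to scale), blue for Il10rb+/- and red for Il10rb-/-, with 1 library per point. The oxidase genes Cybb, Cyba, Ncf1 and Ncf4 separate at 12 weeks, Rac2 stays between 4457 and 5656 normalized counts, Sod2 and Txnrd1 reach 19335 and 18208 in the 12-week Il10rb-/- library, and Cat is lowest there at 1569.

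Other proteins that work with the oxidase were described with a list of 7 partner genes, each in the table and past the filter. At 12 weeks 7 of 7 were higher in *Il10rb-/-* MΦs, 3 of them over 1.5-fold, beside 19.3% of all genes. Their median log2 ratio was 0.58, where that of all genes was 0.04. Scaling to total reads lowers each 12-week ratio by 0.22. *BC017643*, at 0.04 and chosen after its value was seen, then turns negative, and the highest, *Arhgdib* at 0.76, falls below 1.5-fold. The medians at 1 and 3 weeks were 0.07 and 0.10, and 0 of 7 were over 1.5-fold at either age, beside 9.99% and 6.87% of all genes over 1.5-fold higher. *Rac1*, the widely expressed relative of *Rac2*, had log2 ratios of 0.24, 0.04 and 0.37. The largest effects across ages in this list were those of *Hvcn1*, the proton channel that balances the charge of the oxidase (0.02, 0.52 and 0.67), and *Arhgdib*, which holds Rac proteins in the cytosol (0.10, 0.21 and 0.76). Of the other NOX and DUOX enzymes, which serve epithelia and other tissues, 5 of 9 genes were in the table, 2 (*Nox1* and *Noxo1*) passed the filter, and the list summed to 97.9 to 166 normalized counts in a library.

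Among the antioxidant genes *Sod2* and *Txnrd1* were higher in *Il10rb-/-* MΦs at every age and far higher at 12 weeks, while *Gpx1* was 1.39-fold higher at 1 week and within 1.03-fold at 3 and 12 weeks, and *Cat* was 1.41-fold lower at 12 weeks. *Sod2* was 4.96-fold higher at 12 weeks, the only ratio of the 9 genes over 3-fold at any age. *Txnrd1* was the only 1 of the 9 that was over 1.5-fold higher at all 3 ages. Neither passed the adjusted test across ages.

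*Sod2* (ENSMUSG00000006818, chromosome 17 from 13006846 to 13040063), the manganese superoxide dismutase of mitochondria, had 1387, 2049 and 3901 normalized counts in *Il10rb+/-* MΦs at 1, 3 and 12 weeks. In *Il10rb-/-* MΦs it had 1818, 3650 and 19335. The values were ordered by age within each genotype and by genotype within each age, and the *Il10rb+/-* values of 3 and 12 weeks overlapped the *Il10rb-/-* values of 1 and 3 weeks. The log2 ratio was 0.39 (0.28 to 0.50), 0.83 (0.73 to 0.94) and 2.31 (2.27 to 2.34). From 3 to 12 weeks the log2 step was 0.93 (0.83 to 1.03) in *Il10rb+/-* and 2.41 (2.36 to 2.45) in *Il10rb-/-* MΦs, and the difference between these steps was not tested. Per kilobase of exon, *Sod2* had the lowest median level of the 9 genes, 285 normalized counts per kilobase.

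*Txnrd1* (ENSMUSG00000020250, chromosome 10 from 82833951 to 82897712), the cytosolic thioredoxin reductase, is the gene with the antioxidant response element match shown above. It had 1346, 1523 and 6965 normalized counts in *Il10rb+/-* MΦs and 2614, 2838 and 18208 in *Il10rb-/-* MΦs. The first 2 ages were close to each other in both genotypes, and both 12-week libraries were above the 4 younger ones. The log2 ratio was 0.96 (0.85 to 1.06) at 1 week, 0.90 (0.77 to 1.02) at 3 weeks and 1.39 (1.36 to 1.41) at 12 weeks. The step from 3 to 12 weeks was 2.19 (2.08 to 2.31) in *Il10rb+/-* MΦs and 2.68 (2.63 to 2.74) in *Il10rb-/-* MΦs. *Eid3*, *Gm38560* and *Gm47073* overlap the gene in the annotation, *Eid3* on the same strand, and none of the 3 is in the table.

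*Gpx1* (ENSMUSG00000063856, chromosome 9 from 108338903 to 108340343), the main cytosolic glutathione peroxidase, was the most abundant of the 9 per kilobase, with a median of 8969 normalized counts per kilobase. It had 8342, 13092 and 19658 normalized counts in *Il10rb+/-* MΦs and 11558, 12758 and 19333 in *Il10rb-/-* MΦs. Its level was ordered by age in both genotypes, although the step from 1 to 3 weeks in *Il10rb-/-* MΦs was -0.041 with scaling to total reads. The log2 ratio was 0.47 (0.43 to 0.52) at 1 week, -0.04 (-0.08 to 0.01) at 3 weeks and -0.02 (-0.05 to -0.00) at 12 weeks.

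*Cat* (ENSMUSG00000027187, chromosome 2 from 103453849 to 103485160), the catalase of peroxisomes, had 2613, 2305 and 2212 normalized counts in *Il10rb+/-* MΦs and 2542, 2473 and 1569 in *Il10rb-/-* MΦs. The 12-week *Il10rb-/-* library was the lowest of the 6, and the other 5 lay within 2212 to 2613. The log2 ratio was -0.04 (-0.13 to 0.05) at 1 week and 0.10 (-0.01 to 0.21) at 3 weeks, where no difference was detectable at this depth, and -0.50 (-0.57 to -0.42) at 12 weeks. The 3 genes with the profile most like that of *Cat* were *Melk* (Pearson r = 0.998), *Tpx2* (0.997) and *Dtl* (0.997), and *Tpx2* reached from 2.55 to 445 normalized counts over the 6 libraries. The ratio of *Sod2* to *Cat*, in normalized counts per kilobase, was 0.139, 0.232 and 0.460 in *Il10rb+/-* MΦs at 1, 3 and 12 weeks and 0.187, 0.385 and 3.22 in *Il10rb-/-* MΦs. The 12-week *Il10rb-/-* library was thus the only library in which *Sod2* exceeded *Cat* on this scale.

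**Figure D2:**
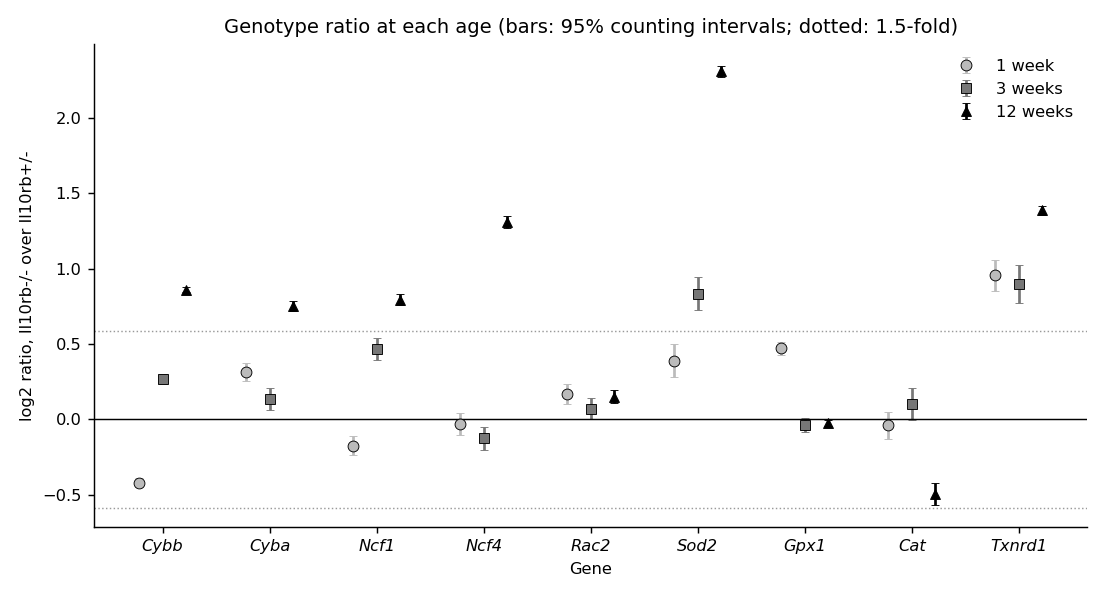
Log2 ratio of Il10rb-/- over Il10rb+/- normalized counts for each of the 9 genes at 1 week (circles), 3 weeks (squares) and 12 weeks (triangles), with bars for 95% counting intervals and dotted lines at 1.5-fold. At 12 weeks 6 genes lie above the upper line, Sod2 highest at 2.31, while Rac2 and Gpx1 lie near 0 and Cat lies at -0.50.

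At 1 week 1 of the 9 genes, *Txnrd1*, was over 1.5-fold higher in *Il10rb-/-* MΦs, beside 9.99% of all 11067 genes, and 0 were over 1.5-fold lower, beside 8.76%. At 3 weeks 2 genes, *Sod2* and *Txnrd1*, were over 1.5-fold higher, beside 6.87% of all genes, and 0 were over 1.5-fold lower, beside 5.98%. At 12 weeks 6 of the 9 were over 1.5-fold higher, beside 19.3% of all genes, and 0 were over 1.5-fold lower, beside 23.6%. The threshold of 3-fold that the study used was passed by 0, 0 and 1 of the 9 genes at 1, 3 and 12 weeks, beside 3.5%, 1.98% and 14% of all genes. The median log2 ratio of the 9 genes was 0.17, 0.14 and 0.79 at the 3 ages, where that of all genes was -0.04, 0.02 and 0.04. These are counts and medians over genes measured in the same 2 libraries at each age.

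Across ages, with the 3 *Il10rb-/-* libraries set against the 3 *Il10rb+/-* libraries in limma and age as a term, 0 of the 9 genes and 0 of all genes (0%) passed at an adjusted p under 0.05. The deleted gene *Il10rb* did not pass either (log2 difference -5.68, SE 0.34, limma adjusted p = 0.0616). Not passing this test thus does not show that a difference is absent. At an unadjusted p under 0.05 there were 2 of the 9 genes, *Txnrd1* and *Sod2*, and 7.71% of all genes (853). *Txnrd1* had a log2 difference of 1.08 (SE 0.17, limma adjusted p = 0.519) and *Sod2* of 1.18 (SE 0.38, limma adjusted p = 0.627). The error of this test is the variation of the genotype difference between ages. Without the 12-week pair *Txnrd1* passed, with a log2 difference of 0.93 and an adjusted p of 0.0228 in limma, where the other alternatives reached up to 0.986. The remaining 7 genes had log2 differences between -0.14 (*Cat*) and 0.40 (*Cyba*) with adjusted p between 0.627 and 0.825 in limma.

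*Cyba*, *Rac2*, *Sod2* and *Txnrd1*, 4 of the 9 genes, were higher in *Il10rb-/-* MΦs at all 3 ages, as were 17.4% of all genes. *Txnrd1* was over 1.5-fold higher at all 3, as were 1.25% of all genes (138). For each of these 4 genes the exact two-sided permutation test over the 3 ages gave p = 0.25, the smallest it can give. Any gene higher at all 3 ages gives this value, so it adds nothing to the count. In 0 of the 9 genes did the 3 *Il10rb-/-* libraries lie clear of the 3 *Il10rb+/-* libraries, which occurred for 5.64% of all genes.

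With age compared across genotypes in the same model, 12 against 3 weeks gave 0 of the 9 genes at an adjusted p under 0.05, beside 0.0271% of all genes (3), and 3 of the 9 at an unadjusted p under 0.05, beside 20.4% (2261). The 3 were *Txnrd1* (log2 difference 2.44, SE 0.21, limma adjusted p = 0.0613), *Sod2* (1.67, SE 0.46, limma adjusted p = 0.178) and *Cyba* (0.70, SE 0.23, limma adjusted p = 0.209). This comparison depended on the genes tested and on single libraries. *Txnrd1* passed when 50 normalized counts were required in every library (adjusted p = 0.0393 in limma), and in 4 of the 6 fits that left out 1 library, those without either 1-week or either 12-week library. Over all alternatives its limma adjusted p ran from 2.44e-06 to 0.275. Without the 12-week *Il10rb+/-* library *Cyba*, *Ncf4* and *Sod2* passed too. That fit leaves 1 library at 12 weeks, and a large share of all genes passed in it, so passing there does not set these genes apart. Between 1 and 3 weeks 0 of the 9 genes passed with or without adjustment, beside 0.0181% of all genes (2) adjusted and 8.65% (957) unadjusted. With the *Il10rb+/-* or the *Il10rb-/-* library of 12 weeks left out, *Sod2* passed at this step, with a log2 difference of 0.78. Both fits leave 1 library at 12 weeks, and many other genes passed in them too.

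Markers of other cells moved with the 12-week values. In the 12-week *Il10rb-/-* library the neutrophil markers *S100a8*, *S100a9* and *Csf3r* had 1673, 2906 and 6944 normalized counts, against 12.8, 33.6 and 1420 in the 12-week *Il10rb+/-* library. All 8 neutrophil markers past the filter, of 11 in the table, were higher, with a median log2 ratio of 3.07. *S100a8*, *S100a9*, *Ltf*, *Ngp* and *Cxcr2* passed the filter only through this library. Their direction was thus fixed by the filter, and the count and the median are no separate evidence. Among the defining markers, *Ly6g* and *Mpo* had 15.9 normalized counts each and *Ngp* had 179.6 in that library, and *Elane* is not listed in the table. Neutrophils also hold the phagocyte oxidase. The monocyte markers *Ly6c2* and *Plac8* had 2611 and 14515 normalized counts against 143 and 1515, with a monocyte list sum of 36172 against 5001 to 28428 in the other libraries. Of the 8 monocyte markers 6 were higher at 12 weeks (median log2 ratio 2.5), while *Fn1* and *S100a4* were lower (-0.59 and -0.48). *Vcan*, among the higher ones, passed the filter only through the 12-week *Il10rb-/-* library, which fixed its direction. The dendritic cell list summed to 41151 against 2073 to 11949 normalized counts, of which *Ccr7* made up 38707. Of 6 dendritic cell markers past the filter 5 were higher at 12 weeks, while *Batf3* was lower (log2 ratio -1.39). The sort took CD64+Ly6C-MHCII+CD103- cells, a gate meant to leave out neutrophils, Ly6C+ monocytes and CD103+ dendritic cells. The part of any such cells in the 12-week values of *Cybb*, *Cyba*, *Ncf1*, *Ncf4*, *Sod2* and *Txnrd1* was not tested. The part of colitis in these values was not tested either, since it goes with genotype at 12 weeks.

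Markers of other lineages moved at other ages. Of 12 epithelial markers past the filter, 11 were higher in *Il10rb-/-* MΦs at 1 week (median log2 ratio 2.97, with *Fcgbp* at 1 read against 0), 1 at 3 weeks (median -0.96) and 10 at 12 weeks (median 1.37), with sums of 186 to 2486 normalized counts in a library. The B and plasma cell list had medians of -0.94, -1.08 and -2.98 at the 3 ages, over 8 genes, with sums of 1005 to 18337 normalized counts. The T cell list, over 6 genes, had medians of 0.19, 0.58 and 0.17 with sums of 1950 to 4404, and the eosinophil list, over 2 genes, had medians of -0.70, -0.05 and -1.83 with sums of 60.5 to 233. The part of these lineages in the results was not tested. *Vil1*, *Cd3e* and *Cd3g* passed the filter only through the 12-week *Il10rb-/-* library, and *Pax5* and *Ccr3* only through the 12-week *Il10rb+/-* library. Their 12-week directions were thus fixed by the filter, and the 12-week counts and medians that hold them are no separate evidence.

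**Figure D3:**
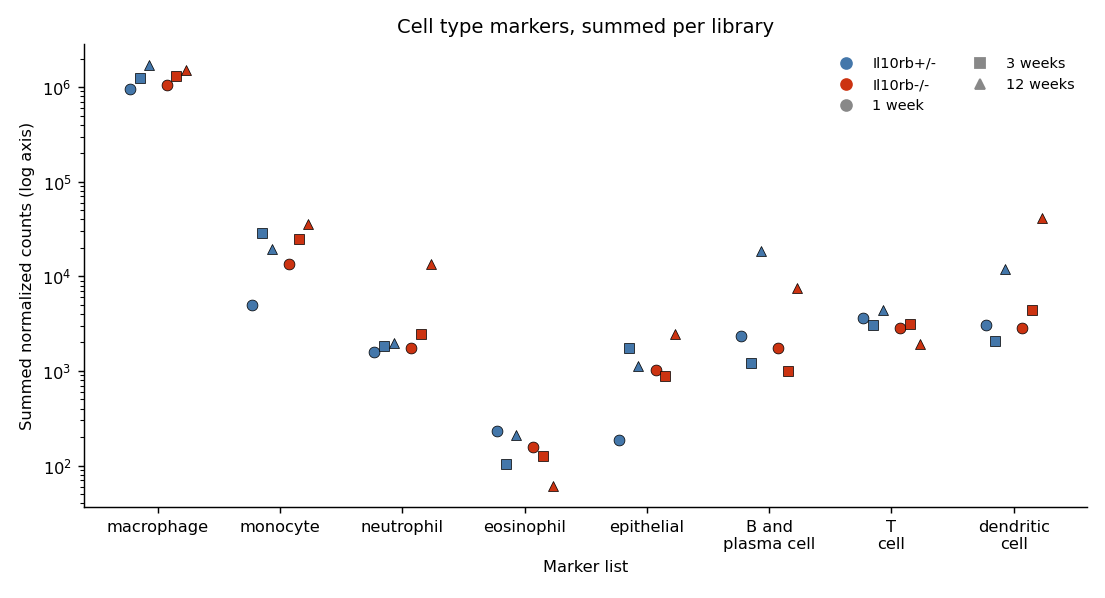
Summed normalized counts (log axis) of 8 marker lists in each library, blue for Il10rb+/- and red for Il10rb-/-, with circles, squares and triangles for 1, 3 and 12 weeks. The neutrophil sum is 13629 in the 12-week Il10rb-/- library and 1604 to 2431 in the others, and the dendritic cell sum is highest in the same library, mostly through Ccr7.

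Other genes of the redox system were read from lists of superoxide dismutases and peroxidases, the thioredoxin system, glutathione and NADPH supply, and the NRF2 axis, the stress response that acts through the antioxidant response element. None of their genes passed the adjusted test across ages, and in limma at an unadjusted p under 0.05 there were 2 higher and 1 lower of 10, 3 higher and 1 lower of 8, 2 higher and 1 lower of 8, and 0 of 6. For comparison 7.71% of all genes passed at that level.

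Of the superoxide dismutases and peroxidases, 8, 5 and 5 of 10 genes were higher in *Il10rb-/-* MΦs at 1, 3 and 12 weeks, with median log2 ratios of 0.42, -0.02 and -0.03. The medians of all genes were -0.04, 0.02 and 0.04. *Prdx1*, a cytosolic peroxiredoxin, had log2 ratios of 0.35, 0.09 and -0.13. *Gpx3*, the secreted glutathione peroxidase, had 686, 932 and 424 normalized counts in *Il10rb+/-* MΦs and 502, 517 and 24.2 in *Il10rb-/-* MΦs, with a 12-week log2 ratio of -4.13 (-4.64 to -3.66). *Gpx2*, the gastrointestinal relative, had 28 reads or fewer in 5 libraries and 80 in the 12-week *Il10rb-/-* library. It passed the filter only through that library, so its 12-week direction was fixed. At 1 and 3 weeks it counts as higher against 0 reads shown as 1. *Prdx5* and *Prdx6*, chosen after their values were seen, had log2 ratios of 0.60, 0.75 and 2.59 and of 0.55, 0.56 and 1.71.

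In the thioredoxin system, around *Txnrd1*, the substrate *Txn1* had 1224, 1677 and 3026 normalized counts in *Il10rb+/-* MΦs and 1923, 2491 and 6876 in *Il10rb-/-* MΦs. Its log2 ratios were 0.65 (0.54 to 0.77), 0.57 (0.45 to 0.69) and 1.18 (1.14 to 1.23). *Srxn1*, which repairs overoxidized peroxiredoxins, had log2 ratios of 0.59, 1.43 and 0.75. *Txnip*, the inhibitor of thioredoxin went the other way with -0.50, -0.18 and -1.30. The list as a whole had medians of 0.21, 0.11 and 0.34 over 8 genes.

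In glutathione and NADPH supply the medians were 0.05, 0.22 and 0.62 over 8 genes. At 12 weeks 4 were over 1.5-fold higher, beside 19.3% of all genes, and 1 was over 1.5-fold lower, beside 23.6%. The lower one was *Idh1*, chosen after its values were seen, with log2 ratios of -0.26, -0.44 and -0.59. *Slc7a11*, the cystine importer that feeds glutathione synthesis, had 491, 440.5 and 1093 normalized counts in *Il10rb+/-* MΦs and 1224, 1211 and 10009 in *Il10rb-/-* MΦs. Its log2 ratios were 1.32 (1.16 to 1.48), 1.46 (1.23 to 1.69) and 3.19 (3.13 to 3.26), with a limma log2 difference across ages of 1.99 (SE 0.39, adjusted p = 0.561). *Gsr*, glutathione reductase, had 0.40, 0.75 and 1.27. *Pgd*, which makes NADPH in the pentose phosphate pathway, had 0.02, 0.28 and 0.82.

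In the NRF2 axis the medians were 0.05, 0.27 and -0.62 over 6 genes. The genes moved in both directions at 12 weeks, so the median is not a direction of the pathway. *Keap1*, chosen after its values were seen, had log2 ratios of 0.06, -0.21 and 0.18. *Bach1*, chosen in the same way, had -0.37, 0.17 and -0.86. *Nfe2l2*, which encodes NRF2 itself, had log2 ratios of 0.06, 0.49 and 0.74. *Osgin1* had -0.68, 0.05 and -2.59, and *Sqstm1*, an autophagy receptor that binds KEAP1, had 0.12, 0.46 and -0.47. *Hmox1*, heme oxygenase, chosen after its values were seen, had 0.05, 0.37 and -0.78.

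**Figure D4:**
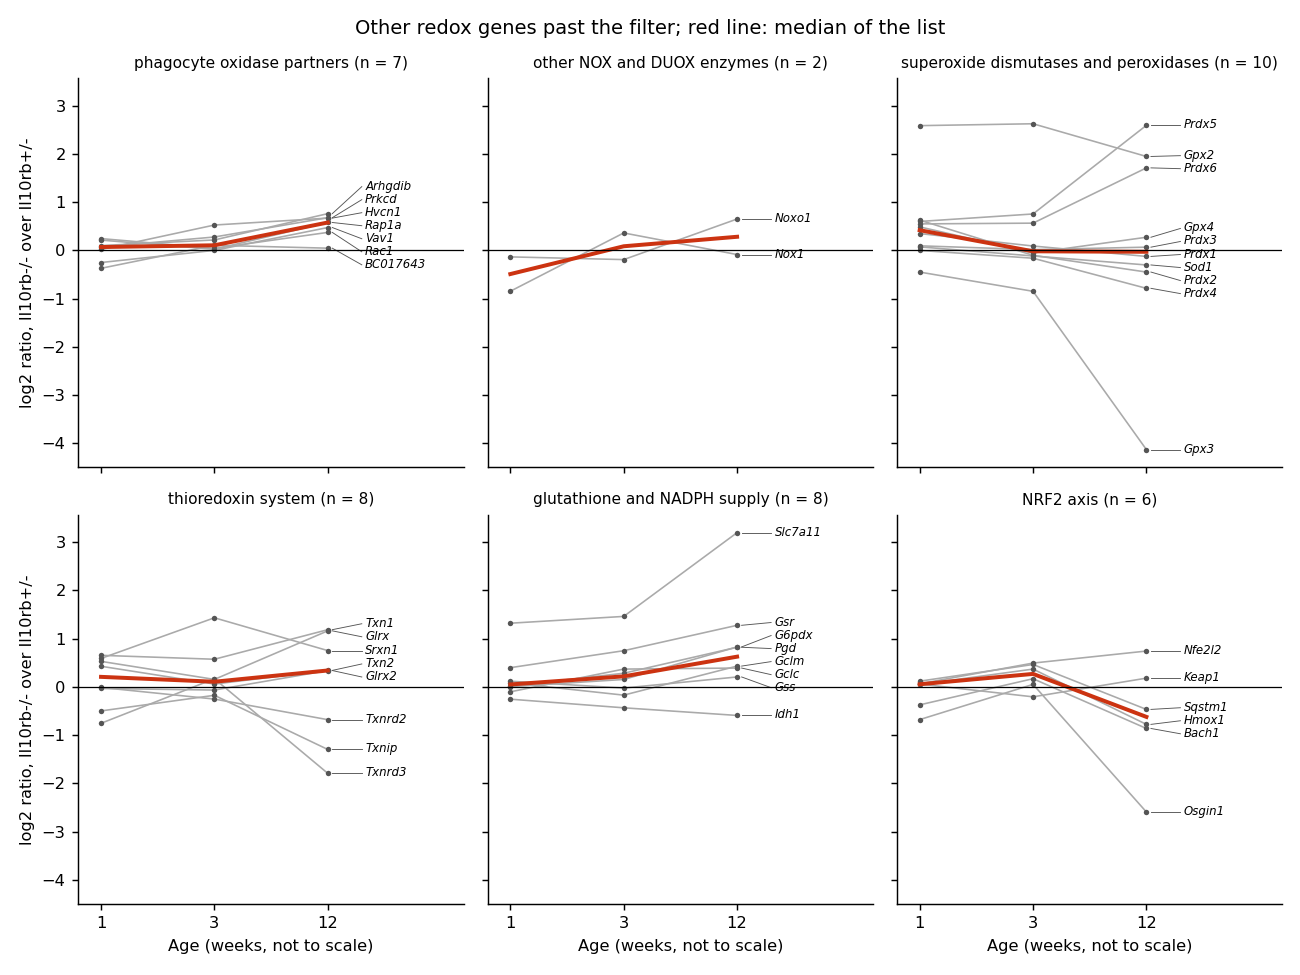
Log2 ratio of Il10rb-/- over Il10rb+/- normalized counts at 1, 3 and 12 weeks for the genes of 6 other redox lists past the filter, 1 grey line per gene named at its 12-week point and a red line for the list median. Slc7a11 and Prdx5 lie highest at 12 weeks (3.19 and 2.59) and Gpx3 lowest (-4.13), and the first 2 points of Gpx2 are set against 0 reads shown as 1.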

How the data were processed

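P3/P4 MΦs sorted from the colon gave 6 RNA-seq libraries, which the labels assign to a genotype and an age of 1, 3 or 12 weeks. The labels name a SMART-Seq v4 kit where the study's methods name oligo dT beads. For alignment of the single-end reads the authors ran TopHat with its defaults on mm10, then htseq for counts per gene and DESeq for size factors. Tool versions, the gene annotation and the strand setting are not given in the sources used here.

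Each deposited value is a normalized signal (counts over the size factor), and 1 stands for 0. Values other than 1, checked up to 1000 reads, were whole multiples of 1 step within 0.1 read in 100% of cases in every library. Reads were read back with this step (0.473 to 2.43 normalized counts per read). Totals in *Il10rb+/-* libraries were 14952689 reads (1 week), 6700337 (3 weeks) and 40754971 (12 weeks), and in *Il10rb-/-* libraries 9892762, 19128951 and 35266607. These reads served for the counting intervals, for the TMM and total-reads scalings and where reads are given, and not for the main model. Because the values are normalized and zeros are replaced, no count model was used, although one was planned as an alternative.

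Genotype and age were terms of a model fitted with limma 3.58.1 in R 4.3.3, after a pseudocount of 1 and log2, with empirical Bayes moderation that follows a trend in the variance. Adjustment (Benjamini-Hochberg) was over the 11067 genes at 50 or more normalized counts in at least 1 library, as in the study. Within a genotype each library is a separate mouse or pool of another age. Single-age ratios have no test. A further partner gene is not reported here. Other steps used Python 3.11.15, numpy 2.4.6, pandas 2.3.3, scipy 1.17.1 and matplotlib 3.10.9. The model and the intervals were checked on simulated data. The simulated genotype effects were the same at every age, so this check does not cover ratios that change with age.

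The 9 genes, the lists and the motifs were chosen with earlier results of these data known. All 9 genes are named. Of each other redox list the named genes are the one with the highest mean value, the pair with the largest genotype effect across ages and any gene past the test, beside *Il10rb*, *Rac1* and the 3 genes most correlated with each of the 9. Apart from cell type markers, any other gene is said to have been picked with its values known. Coordinates, exon lengths and overlaps are from GENCODE M21 (GRCm38), in which 14085 of the 14097 genes were found, and promoters are from RefSeq. Alternatives were TMM scaling, total reads, a pseudocount of 10, other filters, no age term, no trend and leaving out libraries.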

Additional observations from a re-analysis of the deposited data

Results flagged for a closer look

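In 4 genes the genotype ratio pointed one way at 1 age and the other way at another, with counting intervals on opposite sides of 0. Each age holds 1 library per genotype, so these differences between ages were not tested. *Cybb* had a log2 ratio of *Il10rb-/-* over *Il10rb+/-* of -0.42 at 1 week, 0.27 at 3 weeks and 0.86 at 12 weeks. *Ncf1*, which encodes the organizer that *Cybb* works with, had -0.17, 0.47 and 0.79. *Ncf4* had -0.12 at 3 weeks and 1.31 at 12 weeks. *Gpx1* had 0.47 at 1 week and -0.024 at 12 weeks. The 1-week *Il10rb+/-* pool had 546 normalized counts of the Y-linked *Ddx3y*, which was at 1 or below in the other 5 libraries. The 12-week *Il10rb-/-* library had the highest sum of monocyte markers, 36172 normalized counts against 5001 to 28428. It stood apart in the sum of neutrophil markers and in *Ccr7* of the dendritic cell list. The part of either, or of colitis in *Il10rb-/-* mice, in these ratios was not tested.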

How the results depend on the processing

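Across all alternatives the 12-week ratios of the 9 genes kept their sign except that of *Rac2*, which was -0.070 with total reads. TMM scaling moved no genotype ratio of the 9 by more than 0.03 on the log2 scale, a pseudocount of 10 by no more than 0.01 and total reads by no more than 0.22. Total reads lowered the 12-week median of the 9 genes from 0.79 to 0.57. It also gave steps of -0.072 for *Ncf1* and -0.18 for *Cybb* from 3 to 12 weeks in *Il10rb+/-* MΦs (median of the 9 genes -0.072), and of -0.064 for *Txnrd1*, -0.0085 for *Rac2* and -0.041 for *Gpx1* from 1 to 3 weeks in *Il10rb-/-* MΦs (median -0.0085). The median step from 3 to 12 weeks in *Il10rb-/-* MΦs, 0.66, became 0.62 with TMM scaling and 0.24 with total reads. With a pseudocount of 10 the genes over 3-fold numbered 125 at 1 week and 85 at 3 weeks, against 387 and 219.

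For genotype across ages in limma, the 0 genes called became 1 with a pseudocount of 10, 1 without the age term and 3 to 61 with 1 pair of libraries left out (20 without 1 week, 3 without 3 weeks, 61 without 12 weeks). Of the 9 genes 0 to 1 were then called (*Txnrd1*, without 12 weeks). For 3 against 1 week the 2 genes called became 8 with a pseudocount of 10, 9 with 50 normalized counts required in every library, 0 without the trend and 1 to 1016 with 1 library left out, with 0 to 1 of the 9 called (*Sod2*, without either 12-week library: 988 genes without *Il10rb+/-*, 1016 without *Il10rb-/-*). For 12 against 3 weeks the 3 genes became 8, 22, 0 and 0 with a pseudocount of 10, the stricter filter, total reads and no trend. With 1 library left out they were 1 to 3124, the highest without the 12-week *Il10rb+/-* library and 657 without the 12-week *Il10rb-/-* library, with 71 without the 1-week *Il10rb+/-* library and 107 without the 1-week *Il10rb-/-* library. Of the 9 genes 1 was called with the stricter filter and 0 to 4 with 1 library left out. A library left out removes its age from the estimate of the error, so the remaining spread comes from the other ages. For the age comparisons, the stricter filter, the fits without the trend and those without 1 library were chosen after seeing the data. The cause of the other shifts was not tested. Age pairs the libraries of the 2 genotypes and is already a term of the model. The count-based tests planned as alternatives were not run, since the values are normalized with zeros replaced. Depth limits the 3-week ratios most, where 626 to 8374 reads of the *Il10rb+/-* library lie behind the 9 genes.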

Other observations

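The profiles of the 9 genes over the 6 libraries were compared as Pearson correlations of log2 values, given as a description without a test, since the points share libraries and the 12-week *Il10rb-/-* library lies at the end of the range for many genes. Among the oxidase genes *Cybb* and *Ncf1* were most alike (r = 0.931), while *Rac2* had r of 0.127 with *Cybb* and 0.141 with *Cyba*. *Sod2* had r of 0.936 with *Txnrd1* and -0.947 with *Cat*.

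Of all genes past the filter, the profile most like that of *Cyba* was that of *Rhog* (r above 0.99), with *Lsm12* and *Rap1a* next. For *Cybb* the 3 were *Api5*, *Pik3ap1* and *Caprin1*, and for *Ncf4* they were *Apba3*, *Rwdd2b* and *Triobp*. *Sod2* was closest to *Mkl1*, *Napa* and the glycolytic gene *Pkm*, *Txnrd1* to *Jag1*, *Sf1* and *Psmb5*, and *Gpx1* to *F5*, *Chchd2* and *Selp*. *Rac2* was closest to *Vsig10* (r = 0.985), *Flt3l* and *Slc25a35*, which were low, with *Vsig10* between 51.6 and 89.7 normalized counts.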
